A study of Homo sapiens with 6 samples.

Results

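The 35 genes described here encode the proteins of the human centromere and kinetochore: the centromeric nucleosome and its loading factors, the inner and outer kinetochore, and the fibrous corona. They were chosen by name, with earlier results of these data known. Each was found among the 23555 gene rows of the deposited expression table. All 35 also reached a TPM (an abundance corrected for gene length and scaled to the same total in each library) of 1 or more in 3 or more of the 6 libraries, the minimum for testing, as did 13836 rows in all. CENPJ carries a centromere name but encodes a centriole protein, so it was kept apart from the others. The libraries came from IMR-32, an established human neuroblastoma cell line with amplified MYCN whose genotype is labelled WT. Cells were given either the solvent DMSO or PTC-028, a compound used against the Polycomb protein BMI1, at 25 nM, both for 24 h, and each group had 3 libraries of poly(A)-selected RNA.

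The centromere is the chromosomal site at which the kinetochore, the machine that holds spindle microtubules, is built. Its base is a nucleosome in which CENPA replaces histone H3, deposited by the chaperone HJURP with the help of the MIS18 proteins MIS18A and OIP5. On it sits the constitutive centromere-associated network, or inner kinetochore, which stays bound through the cell cycle. The outer kinetochore, made of the KNL1, MIS12 and NDC80 complexes, is assembled for mitosis and binds microtubules together with the SKA complex. CENPE, a kinesin motor, and CENPF, a large coiled-coil protein, belong to the corona that covers unattached kinetochores.

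In the PTC-028 libraries, 7 of the 35 genes were lower and none was higher by limma, with adjusted p under 0.05 over all genes tested. Across all 13836 genes, 1.01% were lower and 0.867% were higher by the same rule. The 7 were the inner kinetochore genes CENPQ, CENPU, CENPM, CENPX and CENPW and the outer kinetochore genes DSN1 and ZWINT. Their mean TPM fell by between 21.1% and 35.2%. At an unadjusted limma p under 0.05, 0 of the 35 were higher and 19 lower, while 2397 of all 13836 genes had such a p in either direction. CENPA, the histone variant of the centromeric nucleosome, and the corona genes CENPE and CENPF did not pass. The groups did not overlap, with PTC-028 lower, for 20 of the 35 genes, against 10.6% of all genes tested, and did not overlap in the other direction for 0 of the 35, against 13.4%. The median log2 fold change of the 35 was -0.21, compared with 0.03 over all genes tested. In bulk RNA, fewer cells in the cell cycle phase that makes these transcripts and less transcript per cell cannot be told apart.

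The summed TPM of the genes, with both rows of SPC25 included, was 2120, 2176 and 2153 with DMSO and 1735, 1888 and 1794 with PTC-028. The sums thus did not overlap, and they corresponded to between 0.212% and 0.218% of all TPM in DMSO and between 0.174% and 0.189% in PTC-028. The count of 7 depended on single libraries: it was 3 when DMSO replicate 1 was left out, and 2, 2 and 3 when PTC-028 replicate 1, 2 or 3 was. The number of calls over the whole table, 260 with all libraries, was then 76, 89, 74 and 99.

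**Figure D1:**
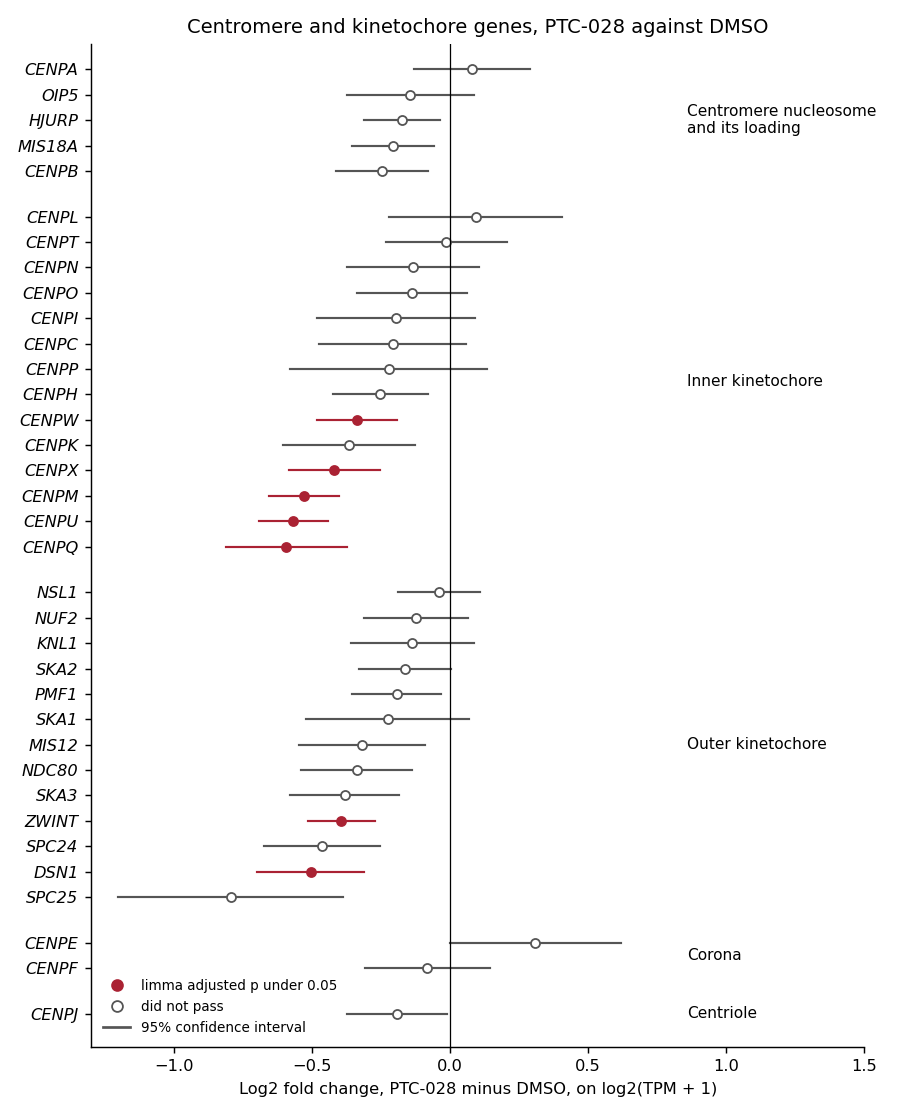
Log2 fold change of each of the 35 genes between PTC-028 and DMSO on the log2(TPM + 1) scale (points, 3 libraries per group) with 95% confidence intervals (lines), grouped by place in the structure and filled where limma's adjusted p was under 0.05. The 7 filled points lie between -0.59 and -0.34, all in the inner and outer kinetochore.

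Before the values, the sequence just upstream of several of these genes is shown, because these promoters are known as targets of cell cycle regulators. Genes of late S phase to mitosis often carry a cell cycle homology region (CHR), bound by the MuvB core of the DREAM complex, close to CCAAT boxes bound by NF-Y, whereas genes of the G1/S transition more often carry E2F sites. The 120 bases before the RefSeq start are given for 4 genes that fell (CENPU, CENPQ, CENPX and ZWINT, the last at the start site farther downstream of its 2) and for 3 that did not pass (CENPA, HJURP and CENPF). They are written 5′ to 3′ on the gene's strand in build GRCh38.p14, with CHR, E2F and CCAAT matches on either strand in capitals. Each printed stretch holds a match, but among the genes that fell DSN1 had none in its window and CENPW none in these 120 bases. Others that did not pass, such as NSL1, CENPE, CENPB and CENPT, had no match in their windows.
CENPU, minus strand, chr4:184734097-184734216: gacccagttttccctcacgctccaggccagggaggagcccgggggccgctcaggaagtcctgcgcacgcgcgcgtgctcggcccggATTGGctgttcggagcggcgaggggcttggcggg
CENPQ, plus strand, chr6:49463250-49463369: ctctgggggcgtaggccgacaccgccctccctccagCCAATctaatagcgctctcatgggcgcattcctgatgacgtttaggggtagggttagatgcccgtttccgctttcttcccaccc
CENPX, minus strand, chr17:82022879-82022998: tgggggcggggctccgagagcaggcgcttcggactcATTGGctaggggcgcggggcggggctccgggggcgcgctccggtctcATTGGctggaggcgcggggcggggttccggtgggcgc
ZWINT, minus strand, chr10:56361260-56361379: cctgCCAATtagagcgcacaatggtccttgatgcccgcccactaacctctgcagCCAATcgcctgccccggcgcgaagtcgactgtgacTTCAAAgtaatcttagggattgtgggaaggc
CENPA, plus strand, chr2:26785936-26786055: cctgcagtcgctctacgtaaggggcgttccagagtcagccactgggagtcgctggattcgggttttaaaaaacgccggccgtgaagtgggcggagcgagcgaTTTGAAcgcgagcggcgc
HJURP, minus strand, chr2:233854536-233854655: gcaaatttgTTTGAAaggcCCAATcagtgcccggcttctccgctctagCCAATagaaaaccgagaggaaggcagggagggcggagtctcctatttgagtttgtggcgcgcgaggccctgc
CENPF, plus strand, chr1:214603075-214603194: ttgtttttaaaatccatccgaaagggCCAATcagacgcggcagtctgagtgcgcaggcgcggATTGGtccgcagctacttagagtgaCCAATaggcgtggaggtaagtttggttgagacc

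Over the full RefSeq windows, from 250 bases before to 50 after a start, 29 of the 35 genes had at least 1 window. The CHR was searched as TTTGAA or TTCGAA, the CCAAT box as CCAAT and the E2F site as TTTCCCGC, TTTCGCGC, TTTGCCGC or TTTGGCGC, on both strands. A CHR match stood in 14 of the 29 (48.3%, against 19.5% of 27305 genes with a window), a CCAAT match in 18 (62.1% against 39.7%) and an E2F match in 4 (13.8% against 3.99%). Among the 6 genes that fell and had a window, 2 held a CHR, 5 a CCAAT box and 1 an E2F match. Among the 23 that did not pass, these numbers were 12, 13 and 3. A match of such short letters describes the window and does not show that a factor binds there.

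In the base of the structure, none of the 5 genes passed the limma test, although 3 had an unadjusted p under 0.05, and their median log2 fold change was -0.17. CENPA (chromosome 2, 26764289 to 26801067, GRCh38) was at 40.1, 34.5 and 41.5 TPM in DMSO and at 37.8, 44.0 and 40.9 TPM in PTC-028. The groups overlapped, and the log2 fold change of 0.08 ± 0.09 (SE, n = 3 each) had a 95% confidence interval from -0.13 to 0.29 (limma adjusted p = 0.694). HJURP was at 41.4, 40.5 and 41.2 TPM in DMSO and at 37.4, 36.0 and 35.4 TPM in PTC-028, without overlap, but its log2 fold change of -0.17 ± 0.06 missed the threshold (SE; limma adjusted p = 0.194). MIS18A was at 40.4, 42.3 and 42.2 TPM in DMSO and at 36.2, 37.5 and 34.2 TPM in PTC-028, and with a log2 fold change of -0.21 ± 0.06 it also missed the threshold without overlap of the groups (SE; limma adjusted p = 0.168). OIP5 was at -0.14 (limma adjusted p = 0.496), and 38.0% of the exonic bases of OIP5 lie under its antisense RNA OIP5-AS1, which was not analysed here. CENPB, which binds alpha-satellite DNA, was at 59.3, 60.5 and 67.4 TPM in DMSO and at 55.8, 50.7 and 50.7 TPM in PTC-028. These groups did not overlap either, and the log2 fold change was -0.25 ± 0.07 (SE; limma adjusted p = 0.151).

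In the inner kinetochore, 5 of 14 genes fell, none rose and 9 did not pass, with a median log2 fold change of -0.24. CENPU (chromosome 4, 184694618 to 184734133), a subunit of the CENP-OPQUR group and a docking protein for the kinase PLK1, was at 105, 106 and 103 TPM in DMSO and at 67.7, 69.5 and 73.9 TPM in PTC-028. The highest PTC-028 library thus lay well under the lowest DMSO library, and the log2 fold change was -0.57 ± 0.05 (± SE over 3 and 3 libraries; limma adjusted p = 0.00339), the smallest p of the 35 genes. CENPQ (chromosome 6, 49463378 to 49493107) of the same group was at 19.8, 21.7 and 20.8 TPM in DMSO and at 12.3, 13.2 and 14.96 TPM in PTC-028, which is -0.59 ± 0.09 as a log2 fold change (SE; limma adjusted p = 0.0256). Its groups were apart as well, with the PTC-028 mean at 0.648 of the DMSO mean, but its call held in 9 of 16 alternative fits and, with 1 library left out, only without PTC-028 replicate 3 (limma adjusted p up to 0.107). The remaining genes of the group, CENPO and CENPP, overlapped between the groups and were at -0.14 and -0.22 (limma adjusted p = 0.448 and 0.499). For CENPO, 27.0% of exonic bases are shared with the opposite-strand gene ADCY3, and for CENPP 38.0% with IPPK. Whether counting used strand is not given in the sources used here, so reads of such pairs cannot be told apart.

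CENPM (chromosome 22, 41938721 to 41947164) belongs to the CENP-HIKM group, a link between the centromeric nucleosome and the rest of the network. It was at 75.8, 73.1 and 77.9 TPM in DMSO and at 52.1, 53.3 and 50.9 TPM in PTC-028, which is -0.53 ± 0.05 as a log2 fold change (± SE over 3 and 3 libraries; limma adjusted p = 0.00564). All PTC-028 libraries lay under all DMSO libraries, by more than the spread within either group. Its partners did not pass: CENPK was at -0.37 ± 0.10, CENPH at -0.25 ± 0.07 and CENPI at -0.20 ± 0.12 in log2 fold change (SE; limma adjusted p = 0.139, 0.151 and 0.451). CENPK and CENPH had no overlap between the groups, whereas CENPI had.

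CENPW and CENPX are histone-fold proteins that form a nucleosome-like unit with CENPT and CENPS, and CENPX also takes part in the Fanconi anaemia pathway. CENPX (chromosome 17, 82018702 to 82024107) was at 162, 154 and 184 TPM in DMSO and at 129, 125 and 119 TPM in PTC-028, a log2 difference of -0.42 ± 0.07 (± SE over 3 and 3 libraries; limma adjusted p = 0.0306). CENPW (chromosome 6, 126340174 to 126348875) was at 105, 94.6 and 103 TPM in DMSO and at 76.6, 83.9 and 78.9 TPM in PTC-028, and fell by 0.34 ± 0.06 (SE; limma adjusted p = 0.0432). For both genes the groups were apart, but the calls were not stable. CENPW passed in 6 of 16 alternative fits: limma's adjusted p was 0.0569 under median ratio scaling, 0.0570 under quantile normalisation and up to 0.169 with 1 library left out, and the call held only without DMSO replicate 2 among those. CENPX passed in 9 of 16 and kept it, with 1 library left out, only without DMSO replicate 2 or 3 (limma adjusted p up to 0.114). CENPT, the DNA-contacting scaffold of this unit, was at 38.7, 39.2 and 39.9 TPM in DMSO and at 36.2, 45.1 and 36.0 TPM in PTC-028. Here the PTC-028 values lay on both sides of the DMSO values, and the log2 fold change of -0.01 had a 95% confidence interval from -0.23 to 0.20 (limma adjusted p = 0.959). CENPC, the scaffold that binds the CENPA nucleosome, had the lowest level of the 35 genes, a mean of 7.72 ± 0.930 TPM with DMSO and 6.52 ± 0.181 TPM with PTC-028 (SD over 3 libraries; limma adjusted p = 0.393). Its groups did not overlap. CENPL and CENPN, which form a dimer in the network, were at 0.09 and -0.13 on the log2 scale and overlapped between the groups (limma adjusted p = 0.767 and 0.544).

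**Figure D2:**
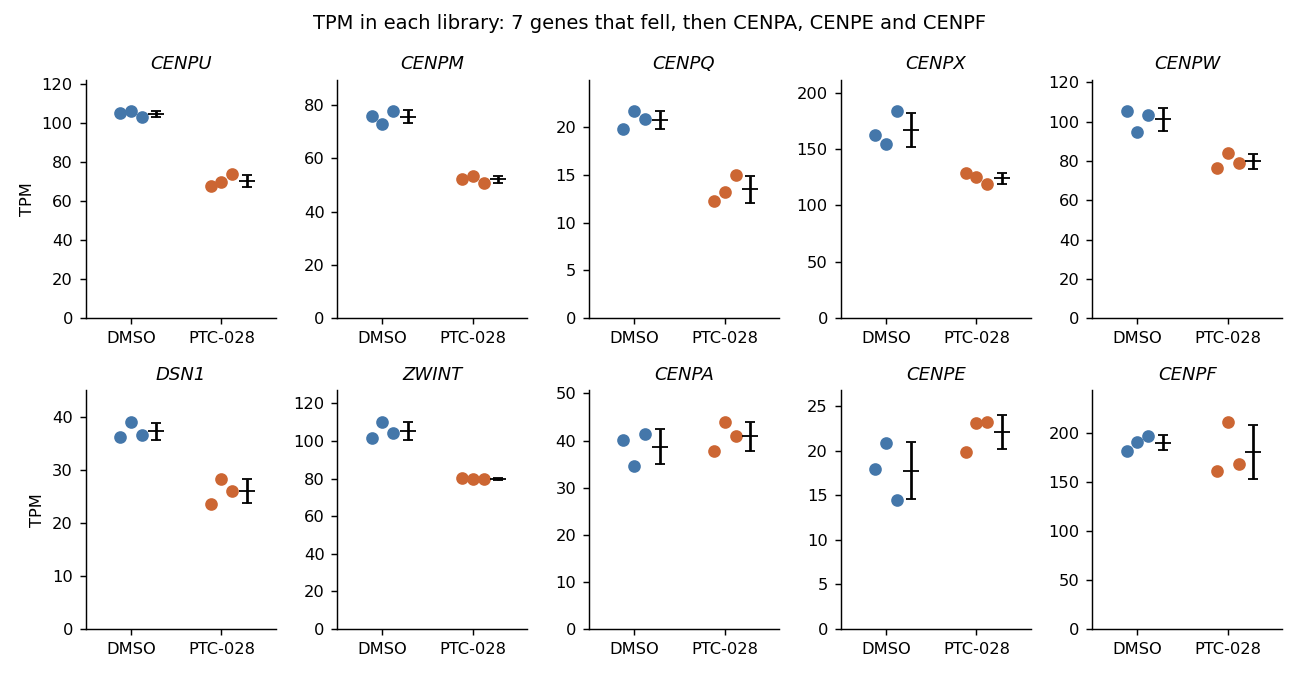
TPM in each library (points, DMSO in blue and PTC-028 in orange) with the mean and SD of 3 libraries (black), each panel starting at 0. The groups are apart in all 7 genes that fell, while CENPA, CENPE and CENPF overlap.

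In the outer kinetochore, 2 of 13 genes fell, none rose and 11 did not pass, and the median log2 fold change was -0.32. Its order against the inner kinetochore median rested on PTC-028 replicate 1, without which the medians were -0.22 (outer) and -0.24 (inner). All 13 had a log2 fold change below 0, from -0.79 for SPC25 to -0.04 for NSL1, though NSL1 turned to 0.0035 without PTC-028 replicate 3. No difference between the inner and outer genes was tested. DSN1 (chromosome 20, 36751791 to 36773818), the subunit of the MIS12 complex through which Aurora B controls its joining to the inner kinetochore, was at 36.1, 39.1 and 36.5 TPM in DMSO and at 23.6, 28.3 and 26.0 TPM in PTC-028. The groups were apart, with a log2 fold change of -0.51 ± 0.08 (± SE over 3 and 3 libraries; limma adjusted p = 0.0279). The other subunits of this complex did not pass, with MIS12 at -0.32, PMF1 at -0.19 and NSL1 at -0.04 (limma adjusted p = 0.164, 0.217 and 0.783). ZWINT (chromosome 10, 56357228 to 56361275), the partner of KNL1 that helps recruit the spindle checkpoint complex, was at 101, 110 and 104 TPM in DMSO and at 80.4, 79.6 and 79.6 TPM in PTC-028. The PTC-028 libraries were nearly alike and all under DMSO, and the log2 fold change was -0.39 ± 0.05 (SE; limma adjusted p = 0.0125). The DSN1 call held in 8 of 16 alternative fits and, with 1 library left out, only without DMSO replicate 3 (limma adjusted p up to 0.104). The ZWINT call held in 11 of 16 and was lost without any 1 PTC-028 library (up to 0.0673). KNL1 itself, the scaffold for the checkpoint kinase BUB1, overlapped between the groups at -0.14 ± 0.10 (SE; limma adjusted p = 0.505), and its level in DMSO, 14.2 TPM, was well under the 105 TPM of ZWINT.

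The NDC80 complex, which makes the direct contact with microtubules, has 4 subunits in a rod, NDC80 and NUF2 at the microtubule end and SPC24 and SPC25 at the inner end. SPC24 was at 47.3, 47.7 and 57.3 TPM in DMSO and at 37.8, 37.4 and 34.0 TPM in PTC-028. These groups were apart, and the log2 fold change of -0.46 ± 0.09 just missed the threshold (± SE over 3 and 3 libraries; limma adjusted p = 0.0502). NDC80 was at 52.5, 55.3 and 49.5 TPM in DMSO and at 37.3, 45.9 and 40.8 TPM in PTC-028, also without overlap (log2 fold change -0.34, limma adjusted p = 0.114). NUF2, at 96.3, 100.03 and 97.9 TPM with DMSO and 79.6, 99.7 and 91.8 TPM with PTC-028, did overlap, at -0.12 (limma adjusted p = 0.482). Of the SKA genes, SKA3 was without overlap at -0.38 (limma adjusted p = 0.0766), while SKA1 and SKA2 overlapped at -0.23 and -0.16 (0.399 and 0.299). SKA2 was the most abundant of the 35 genes, with 293 ± 28.4 TPM in DMSO (SD, n = 3).

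SPC25 had a pair of rows in the table, and the reading of this gene depended on which was used. The row outside the primary assembly was at 39.3, 47.3 and 42.2 TPM in DMSO and at 18.1, 31.3 and 25.1 TPM in PTC-028. It held 77.97% of the summed TPM of the gene in DMSO. This row, which stood for the gene because it was the more abundant, had the largest fall of the 35 genes, -0.79 ± 0.18 on the log2 scale, but its spread in PTC-028 was wide and it missed the threshold (± SE over 3 and 3 libraries; limma adjusted p = 0.0761). The row on the primary assembly was at 12.1, 12.5 and 11.8 TPM in DMSO and at 14.3, 9.98 and 10.4 TPM in PTC-028, with overlap, at -0.08 (limma adjusted p = 0.796). PTC-028 replicate 1 was the lowest library in the former row and the highest in the latter. Summed, the rows gave 51.4, 59.7 and 54.0 TPM in DMSO and 32.4, 41.3 and 35.5 TPM in PTC-028, 0.661 of the DMSO mean. The sum was less variable than its larger part, and its log2 fold change of -0.59 ± 0.10 passed the threshold (SE; limma adjusted p = 0.0302). SKA1 was also read from a row outside the primary assembly, its only row.

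**Figure D3:**
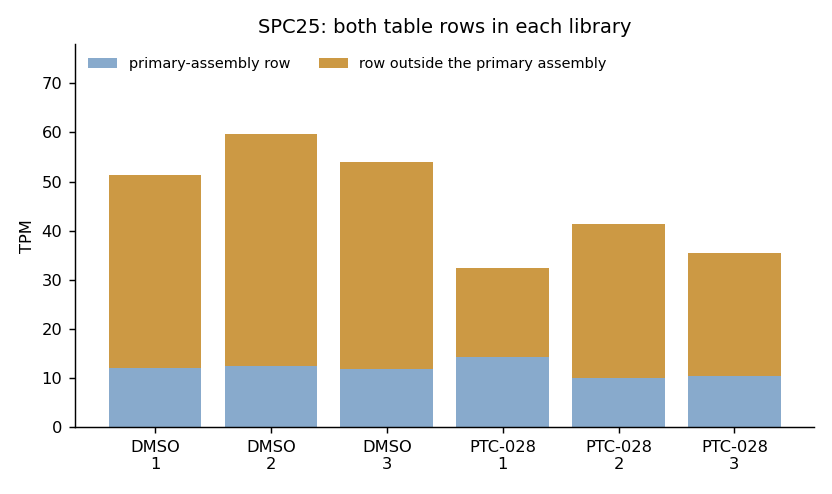
TPM of SPC25 in each library, with the row on the primary assembly (blue) stacked under the row outside it (ochre), so that the height of a bar is their sum. The sums lie between 51.4 and 59.7 TPM in DMSO and between 32.4 and 41.3 TPM in PTC-028, and the primary row is highest in PTC-028 replicate 1.

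In the corona, neither gene passed in limma and neither had an unadjusted p under 0.05. CENPF (chromosome 1, 214603195 to 214664588), one of the most abundant of the 35 genes, was at 182, 192 and 197 TPM in DMSO and at 162, 212 and 169 TPM in PTC-028. The PTC-028 values lay on both sides of DMSO, so that the log2 fold change of -0.08 ± 0.10 had a 95% confidence interval from -0.31 to 0.14 (± SE over 3 and 3 libraries; limma adjusted p = 0.707). CENPE (chromosome 4, 103105806 to 103198409) was at 18.0, 20.9 and 14.5 TPM in DMSO and at 19.9, 23.1 and 23.3 TPM in PTC-028. It had the highest log2 fold change of the 35 genes, 0.31 ± 0.13, with an interval from -0.002 to 0.62, and the groups overlapped through DMSO replicate 2 and PTC-028 replicate 1 (SE; limma adjusted p = 0.290). The centriole gene CENPJ was at 25.6, 25.8 and 28.2 TPM in DMSO and at 21.9, 24.5 and 22.96 TPM in PTC-028, without overlap, and did not pass at -0.19 ± 0.08 (SE; limma adjusted p = 0.267).

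The 35 genes were next set beside genes of the cell cycle, taken from the S phase and G2/M lists that the Seurat package uses to score single cells, with the 35 removed. Of 42 S phase genes 28 fell and none rose, with a median log2 fold change of -0.52. Of 48 G2/M genes 3 fell and 1 rose, with a median of -0.04. Of the kinetochore genes only CENPU is in the S phase list, and it fell. CENPA, CENPE, CENPF, HJURP, NDC80 and NUF2 are in the G2/M list, and 0 of these 6 passed in limma (0 also had an adjusted p under 0.05 in any alternative fit, and 2, HJURP and NDC80, had an unadjusted p under 0.05), with a median of -0.10. The 28 genes in neither list included the other 6 that fell and had a median of -0.22. Relative to the DMSO mean, the median of the inner kinetochore genes was -0.33, -0.22 and -0.26 in PTC-028 replicates 1, 2 and 3 on the log2 scale, and that of the outer kinetochore genes was -0.38, -0.19 and -0.28. PTC-028 replicate 1 was thus the lowest and PTC-028 replicate 2 the highest of the 3 in both groups, while for the S phase list PTC-028 replicate 2 was the lowest at -0.58.

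**Figure D4:**
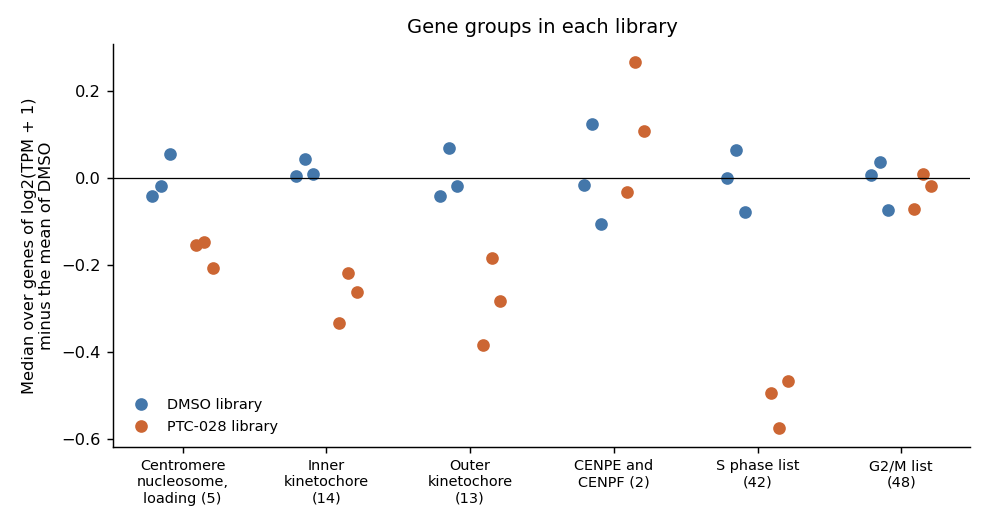
For each gene group, the median over its genes of log2(TPM + 1) minus the DMSO mean, in each DMSO (blue) and PTC-028 (orange) library, with the number of genes in brackets. The 3 kinetochore groups to the left and the S phase list are below the DMSO libraries in all 3 PTC-028 libraries, while CENPE with CENPF and the G2/M list overlap.

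Of 24 other genes linked to the centromere, such as the chromosomal passenger, spindle checkpoint and corona genes, 1 fell, 1 rose and 22 did not pass. Their median log2 fold change was -0.10. Over all genes tested, 1.01% were lower and 0.867% higher. An unadjusted limma p under 0.05, in either direction, was found for 13 of the 24 and for 2397 of all 13836 genes. The groups did not overlap for 9 of the 24 with PTC-028 lower and for 4 with PTC-028 higher. Over all genes tested, these shares were 10.6% and 13.4%. AURKB, the kinase that corrects faulty attachments, was at 149, 148 and 157 TPM in DMSO and at 123, 129 and 129 TPM in PTC-028, and fell by 0.25 ± 0.05 (± SE over 3 and 3 libraries; limma adjusted p = 0.0492). PLK1, a mitotic kinase that is recruited to kinetochores by CENPU, was at 87.6, 91.0 and 92.7 TPM in DMSO and at 115, 122 and 121 TPM in PTC-028, and rose by 0.40 ± 0.05 (SE; limma adjusted p = 0.0106). The AURKB call held in 4 of 16 alternative fits and in none with a library left out (limma adjusted p up to 0.173). The PLK1 call held in 11 of 16 and was lost without DMSO replicate 1, PTC-028 replicate 2 or PTC-028 replicate 3 (up to 0.0667). ITGB3BP and CENPS, the inner kinetochore genes outside the 35, were at -0.26 and -0.10 (limma adjusted p = 0.134 and 0.634).

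For 14 of the 35 genes, another gene on the opposite strand starts within 1000 bases in GENCODE 29, counted between the outermost annotated starts, and 13 of these neighbours were tested. None of the 13 neighbours passed in limma, and 1 (LRRC45) had an unadjusted p under 0.05. Over all 13836 genes tested, 1.01% were lower and 0.867% higher, and 2397 had an unadjusted p under 0.05. Counts this low in 13 genes thus do not set the neighbours apart from other genes. Their median log2 fold change was -0.06, compared with -0.25 for the centromere and kinetochore genes beside them. In 12 of the 13 pairs the centromere or kinetochore gene had the lower log2 fold change, and in 1 pair, which is not shown, it had the higher. Of the 35 genes, 32 had a log2 fold change below 0, while 7954 of all 13836 genes tested were above 0. The count of pairs thus does not set the neighbours apart from other genes. The pair with the widest gap was CENPQ and MUT, a mitochondrial enzyme gene whose start is 187 bases away. MUT was at 22.9, 24.4 and 22.4 TPM in DMSO and at 22.3, 21.4 and 22.5 TPM in PTC-028, with overlap (log2 fold change -0.07, limma adjusted p = 0.655). The ratio of CENPQ to MUT was 0.866, 0.890 and 0.929 in DMSO and 0.551, 0.614 and 0.665 in PTC-028. These ratios did not overlap, with an exact 2-sided permutation p of 0.1, the smallest that 3 against 3 libraries allow. This pair was chosen for its gap after its values were seen, so the permutation p adds no evidence. CENPX and its neighbour LRRC45 had similar values, -0.42 and -0.38 (limma adjusted p = 0.122 for LRRC45).

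**Figure D5:**
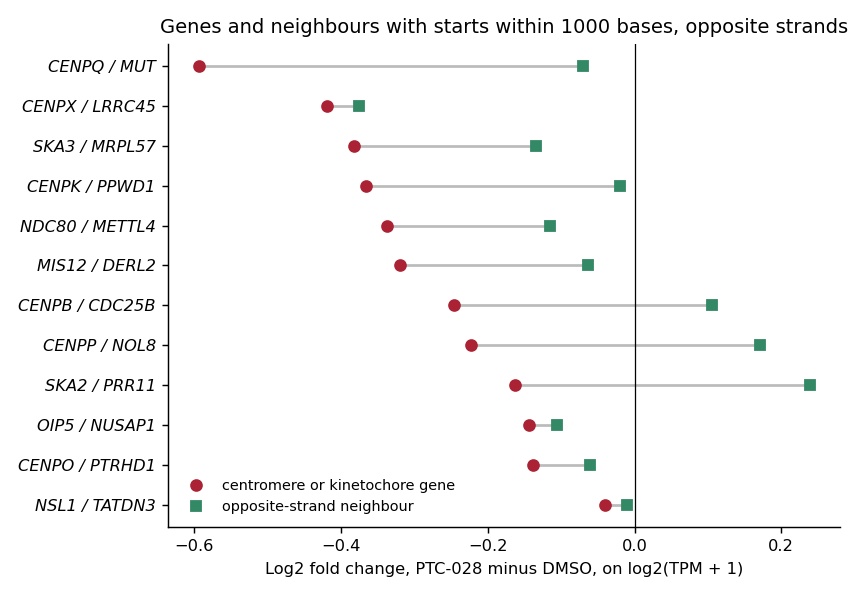
Log2 fold change of 12 centromere or kinetochore genes (red circles) and of the opposite-strand gene that starts within 1000 bases (green squares), joined by a line for each pair. The circle is to the left of the square in the 12 pairs drawn, the 1 tested pair that is not drawn had the opposite order, and the gap is widest for CENPQ, at -0.59, and MUT, at -0.07.

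CENPU also overlaps a gene on the opposite strand, PRIMPOL, a primase and polymerase that restarts stalled replication, which shares 11.7% of the exonic bases of CENPU. PRIMPOL fell too, from a mean of 44.6 to 32.0 TPM, by 0.47 on the log2 scale (limma adjusted p = 0.0470), and reads of this pair cannot be told apart either. The PRIMPOL call held in 5 of 16 alternative fits and in none with a library left out (limma adjusted p up to 0.165). Of the other genes that fell, CENPX shared 2.81% of its exonic bases with LRRC45, and CENPM, CENPQ, CENPW, DSN1 and ZWINT shared none with an annotated gene. In all, 14 of the 35 genes shared exonic bases with another gene. PMF1 shared 23.3% with PMF1-BGLAP, a readthrough transcript on the same strand.

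As context, BMI1 had a mean of 47.9 ± 3.97 TPM with DMSO and 45.5 ± 3.55 TPM with PTC-028 (SD over 3 libraries; limma adjusted p = 0.716), which says nothing of its protein. The p53 target CDKN1A and the replication gene FEN1 had log2 fold changes of 1.89 and -0.70 (limma adjusted p = 1.4e-05 and 0.000961), and MYCN was at 0.08 (0.321). Among general proliferation genes, MKI67 and TOP2A did not pass, at 0.19 and -0.23 (limma adjusted p = 0.314 and 0.162). All 10 neuroblastoma markers were tested, and their summed TPM, from 1796 to 1881 in DMSO and from 1997 to 2031 in PTC-028, was higher in PTC-028 without overlap. GATA3 was the 1 of the 10 that passed, higher in PTC-028. Its part in the results above was not tested. Of 6 fibroblast, 5 immune, 4 epithelial and 3 endothelial markers, 2, 2, 0 and 0 reached the minimum for testing, none of them passed, and the summed TPM of each list was at most 25.9 in any library, with overlap of the groups for each.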

How the data were processed

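RNA of 3 DMSO and 3 PTC-028 libraries was measured by sequencing. The authors deposited TPM per gene; the build is GRCh38 according to the submitters' processing notes, while the software that mapped and quantified reads is not given in the sources used here. Since TPM does not carry the number of reads, depth is unknown. Each library had between 13580 and 14003 genes at a TPM of at least 1.

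Genes reaching 1 TPM in 3 or more libraries were compared on log2(TPM + 1) by limma 3.58.1 (R 4.3.3). Treatment was the model's single term, the prior variance followed a trend on expression, and p-values were 2-sided and adjusted over all 13836 genes by the Benjamini-Hochberg method. This scale understates changes of low genes. For a symbol with several rows, the row with the highest mean TPM was used. Coordinates and overlaps come from GENCODE 29, promoter sequences from RefSeq and the cell cycle lists from Seurat 5.3.0. The fit was tested on simulated data, but the outcome is not given here and adds no support to the results.

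The genes, their grouping and the other lists were chosen with earlier results of these data known. Every one of the 35 was to be accounted for, with those that passed and the 2 with the smallest p of each group described in full. The labels do not say whether replicates were separate cultures, so the p-values reflect library-to-library spread that may be technical. The alternatives were pseudocounts, filters, scaling, variance settings, summed rows, a replicate block and leaving out each library. For 1 of the genes with a neighbour, the pair was counted but is not reported here by name.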

Additional observations from a re-analysis of the deposited data

How the results depend on the processing

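No alternative made any of the 35 genes pass as higher, and the 7 that fell kept their direction in all 16 alternatives. CENPU passed in all 16 and CENPM in 15. The other 5 each lost their call in at least 5, as did AURKB, PLK1 and PRIMPOL.

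The number of the 35 genes that fell was 3 with no filter on low values and 3 with eBayes without a trend, with 138 and 131 calls over the whole table. With 1 library left out it lay between 2 and 5, with 74 to 226 calls over the whole table. The median log2 fold change then lay between -0.23 and -0.16 for the nucleosome and loading genes, between -0.31 and -0.22 for the inner kinetochore and between -0.39 and -0.22 for the outer kinetochore. Log2 fold changes that changed sign in these fits were those of CENPL (-0.052 without DMSO replicate 3, otherwise up to 0.23), CENPT (0.04 without PTC-028 replicate 1 and 0.042 without replicate 3, otherwise down to -0.12) and NSL1 (0.0035 without PTC-028 replicate 3, otherwise down to -0.072). SPC24 passed in 4 alternatives and SPC25 in 2. The cause of these shifts was not tested.

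Over all genes tested, deviations from the group mean had correlations of 0.03, -0.03 and -0.10 between libraries of the same number. These values cannot decide whether the numbers pair the libraries. For the 35 genes, the median deviation was lowest in replicate 1 and highest in replicate 2 in both groups. For the S phase list, replicate 2 was the highest in DMSO but the lowest in PTC-028. With the number as a replicate block, 1 of the 35 genes and 62 in the whole table passed. Depth is unknown, so no limit from read counts can be given.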
